A study of Mus musculus with 24 samples.

Results

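The urogenital sinus (UGS) of female mouse embryos was compared 12 h after their mothers received dihydrotestosterone (DHT) or vehicle. This comparison comprised every array whose title begins with H12, 6 of the 24 arrays of the series, and these held 3 of its 12 pairs of RNA pools. Pregnant C57/Bl6J females were treated at 16.0 days post coitum (dpc) with 50 mg/kg DHT or with vehicle, and the UGS of their female embryos was collected 12 h later. In each pair a pool from DHT-exposed embryos was hybridised directly against a pool from vehicle-exposed embryos on a 2-colour whole-genome array, and again with the dyes exchanged. The remaining arrays held 4 pairs of DHT against vehicle at 6 h, treated in the same way, and 5 pairs of untreated male against untreated female littermates at 17.5 dpc. All embryos of the DHT and vehicle pools were sexed as female by their gonads, the accessory ducts were removed during dissection, and each pool mixed RNA of several embryos whose number is not given. The labels do not say whether the 3 pairs came from separate litters, so p-values measure spread between pools and not between litters. That spread was estimated over all 12 pairs of the series, not over the 3 pairs alone.

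The UGS is a tube of endodermal epithelium wrapped in mesenchyme, and in males it gives rise to the prostate. DHT is the potent androgen made from testosterone by 5-alpha-reductase. In the embryonic UGS androgen acts mainly on mesenchymal cells, and these in turn signal to the epithelium to form buds. The female UGS can also form prostatic buds when androgen is supplied from outside.

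Values are log2 ratios of DHT over vehicle, averaged over both arrays of a pair, so each gene has 3 replicate ratios. A pool's own level is given as log2 normalised signal, which may be compared between pools for 1 gene but not between genes. A gene was called when its adjusted p in limma was under 0.05. The median Cy3 signal of a spot was 142.2 to 151.1 and the median Cy5 signal 133.2 to 146.2. On the 6 arrays 82.1% to 86% of probes were well above background. Over genes (which do not count as replicates) the 2 dye-swapped arrays correlated at r = −0.001, −0.197 and 0.163 in pairs 1, 2 and 3. Arrays of different pairs that carried DHT in the same dye correlated at 0.135 to 0.543. Averages over the dyes correlated between pairs at 0.205, 0.09 and 0.34. A dye effect was called in 7426 genes (30% of those tested), with an SD across genes of 0.12, against 0.102 for the DHT ratio.

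Pair 3 stood apart from the others. In it 50 genes had a ratio over 1 and 33 a ratio under −1, against 3 and 0 in pair 1 and 2 and 1 in pair 2. Genes at its lower end included some whose proteins the liver secretes into plasma. Afp, the fetal plasma protein alpha-fetoprotein, read 6.75, 6.62 and 13.86 in vehicle pools 1 to 3 and 6.12, 6.16 and 6.95 in the DHT pools. Alb, serum albumin, read 6.31, 6.12 and 11.16 in the vehicle pools and 6.11, 6.12 and 8.05 in the DHT pools. The vehicle pool of pair 3 was thus far above every other pool for both genes. Of 26 liver-secreted genes measured, 15 were under −1 in pair 3 and 0 in the other pairs, and the medians were −0.05, 0.03 and −1.25 in pairs 1 to 3. The liver set made up 15 of the 33 genes under −1, which also held Col8a1, a stromal collagen (−1.17). Genes at its upper end included some of the cornifying layers of skin. Krt10, a keratin of differentiating epidermis, read 8.69, 8.75 and 13.55 in the DHT pools and 8.70, 8.66 and 10.17 in the vehicle pools. Hrnr, which encodes a barrier protein of the cornified layer, read 5.84, 5.82 and 10.03 in the DHT pools and 5.86, 5.85 and 6.09 in the vehicle pools. Here the DHT pool of pair 3 was the high one. Of 23 epidermal differentiation genes, 9 were over 1 in pair 3 and 0 in the other pairs, while Krt1 and Flg were near 0 in pair 3 (0.01 and 0.14). The epidermal set made up 9 of the 50 genes over 1, which also held the rises Nt5e (1.29) and Mkx (1.16) and the skeletal muscle genes Tnnc2 (1.42) and Myog (1.16). Both sets were written after these values were seen. Of both sets only Ivl was called. Their part in the results was not tested, and results are given with and without pair 3 below.

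**Figure D1:**
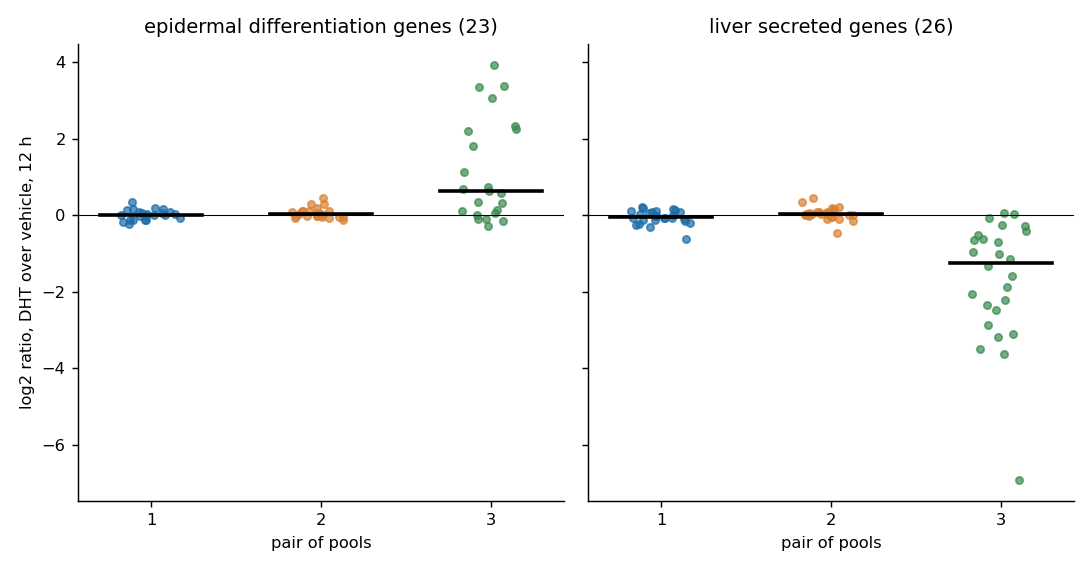
Log2 ratio of DHT over vehicle at 12 h (vertical axis) of 23 epidermal differentiation genes (left) and 26 liver-secreted genes (right) in pairs of pools 1, 2 and 3 (horizontal axis). Each point is a gene and the black line the median; the genes lie near 0 in pairs 1 and 2, while pair 3 reaches 3.93 on the left and −6.92 on the right.

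Epithelial markers also differed between the pairs. Of 27 measured, 26 were above 0 on average, against 51.1% of all genes, and 0 were called. Their means were −0.023, 0.327 and 0.534 in pairs 1, 2 and 3. Their mean level was 9.01 to 9.15 in the vehicle pools and 9.13 to 9.54 in the DHT pools. Cdh1, the epithelial cadherin, read 10.63, 10.99 and 11.20 in the DHT pools and 10.50, 10.49 and 10.47 in the vehicle pools, and its ratio of 0.46 did not pass (adjusted p = 0.227). Krt5, the basal keratin, had ratios near 0 in pair 1 and higher ones in pairs 2 and 3, with pools at 11.87, 12.24 and 12.77 against 11.89, 12.01 and 11.95. Skeletal muscle markers took the same order, with means of 0.035, 0.302 and 0.638 and 0 of 22 called. Markers of both layers of the UGS were present: mesenchymal ones had a mean level of 10.7 to 10.76 over all pools, and 26 of 27 epithelial ones were well above background in every channel. Ddx3y and Eif2s3y, which lie on the Y chromosome, had 12 h ratios of 0.05 and −0.02, against 2.38 and 2.65 between males and females. In RNA from whole tissue, fewer cells of a type and less RNA per cell cannot be told apart.

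At 12 h after DHT, 28 genes were higher (0.113% of the 24715 genes tested) and 43 lower (0.174%). The rises were larger. They ranged from 0.21 to 1.06 with a median of 0.37, or 1.29-fold, while the falls ranged from −0.33 to −0.19 with a median of −0.24, or 1.18-fold. At an unadjusted p under 0.05, 1522 genes were higher (6.16%) and 1956 lower (7.91%). Of the 28 rises, 27 had DHT pools that were all above all vehicle pools, and 34 of the 43 falls had pools that did not overlap, against 8.35% of all genes. All 6 arrays had the same sign for 26 of the rises and 29 of the falls, against 6.94% of all genes. The genes were called from these same arrays, so single signs and pools without overlap follow in part from the choice. Rises and falls came from different ranges of signal. Of the rises, 9 lay below the median brightness of all genes, and of the falls 40 did. With each array centred on its median in place of loess, 18 genes were higher and 3 lower, and with pair ratios centred along brightness 12 were higher and 6 lower. No gene passed in limma when any 1 of the 3 pairs was left out, where 2899 to 2993 genes had an unadjusted p under 0.05. Over pairs 1 and 2 alone, the 28 rises had ratios of 0.20 to 0.94 with a median of 0.32, and the 43 falls −0.36 to −0.17 with a median of −0.23. Both pairs were in the fit that chose the genes, so these values are no test apart from pair 3. Pair 3 had the largest ratio in 17 of the rises and the lowest in 20 of the falls. With 3 pairs no exact test of a single gene by sign can go below p = 0.25, so calls rest on the spread shared by the 12 pairs.

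**Figure D2:**
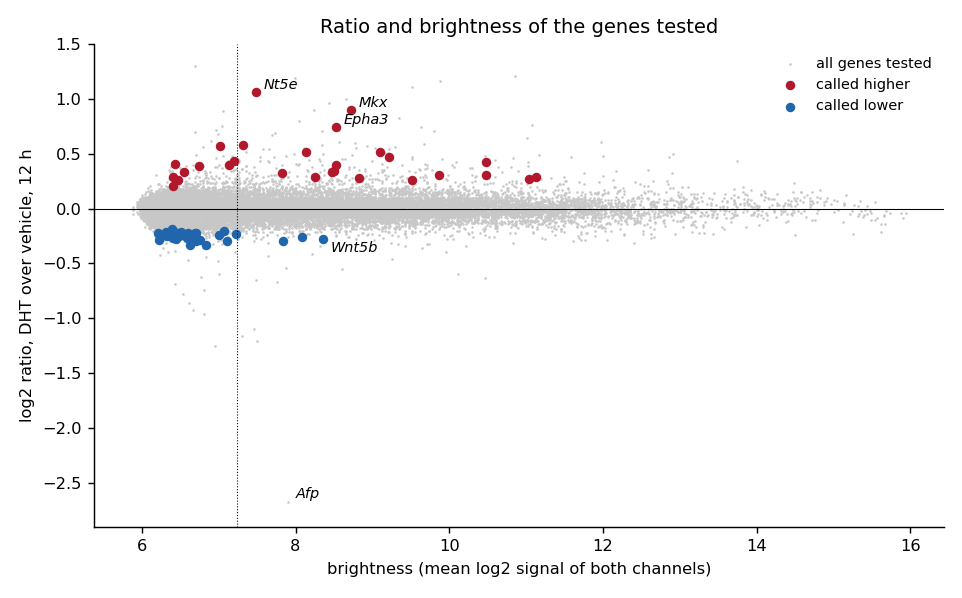
Log2 ratio of DHT over vehicle at 12 h (vertical axis) against brightness, the mean log2 signal of both channels (horizontal axis), for the 24715 genes tested (grey), the 28 called higher (red) and the 43 called lower (blue). The dotted line is the median brightness of 7.24, below which 40 of the 43 falls lie; Afp at −2.67 rests on pair 3.

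The largest rise was that of Nt5e, which encodes CD73, the surface enzyme that releases adenosine from AMP. Its DHT pools read 7.75, 7.5 and 8.10 and its vehicle pools 6.64, 6.74 and 6.81. All DHT pools were above all vehicle pools, and the ratio was 1.06 (SE 0.14, n = 3, adjusted p = 0.0264), or 2.08-fold. A second, dimmer Nt5e probe read 0.06, so the rise rests on 1 probe. Nt5e was the only called gene among 24 purine and adenosine genes, whose median was 0.001.

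Mkx encodes a homeobox factor of tendon and other connective tissue. Its vehicle pools were nearly equal at 8.10, 8.10 and 8.11, and its DHT pools read 8.93, 8.80 and 9.27. The ratio was 0.90 (SE 0.12, adjusted p = 0.0264), or 1.86-fold. Klf15, a zinc finger factor that glucocorticoids induce in several tissues, read 7.04, 7.16 and 7.08 after DHT and 6.41, 6.60 and 6.56 after vehicle. Its 3 pairs were alike, and the ratio was 0.57 (SE 0.10, adjusted p = 0.0498); a second, dimmer probe read 0.10. Lmcd1 encodes a LIM-domain cofactor that restrains GATA factors. It read 8.09, 8.07 and 8.36 against 7.72, 7.52 and 7.71, a ratio of 0.52 (SE 0.08, adjusted p = 0.0375). Setbp1, which encodes a nuclear protein that binds SET, rose by 0.42, but the ratio was 0.60, 0.42 and 0.23 in pairs 1 to 3 and a second, dimmer probe read 0.01.

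Several other rises were genes of surface receptors and membrane proteins, placed together here by their known products. Epha3, an ephrin receptor, read 8.49, 8.65 and 8.99 in the DHT pools and 7.83, 7.97 and 8.12 in the vehicle pools. Its ratios of 0.66, 0.68 and 0.87 were all larger than the spread between pairs, with a mean of 0.74 (SE 0.10, adjusted p = 0.0264), and a second probe read 0.63. Slitrk6, a membrane protein of the neurite-controlling Slitrk family, read 9.09, 9.21 and 9.28 against 8.66, 8.63 and 8.75, a ratio of 0.52 (SE 0.07, adjusted p = 0.0264). These were the 2 called members of 45 guidance genes, whose median was 0.001. Nlgn1, the synaptic adhesion protein neuroligin-1, rose by 0.32 on its brighter probe, while a dimmer one read −0.12. Avpr1a, the vasopressin receptor of smooth muscle and liver, read 7.12, 7.01 and 7.22 against 6.63, 6.57 and 6.94 and rose by 0.40 (SE 0.06, adjusted p = 0.0375). Synpr, a synaptic vesicle membrane protein, rose by 0.40 (SE 0.06, adjusted p = 0.0264).

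Others encode secreted and matrix proteins. Wif1 binds Wnt ligands outside the cell and holds them from their receptors. It read 7.29, 7.21 and 7.66 after DHT and 6.72, 6.70 and 6.99 after vehicle, a ratio of 0.58 (SE 0.09, adjusted p = 0.0417), with no overlap. Col4a6 and Col4a5 encode the chains of a basement membrane collagen that share a promoter region on the X chromosome. Col4a6 read 9.13, 9.21 and 9.53 against 8.64, 8.92 and 8.90 and rose by 0.47 (SE 0.08, adjusted p = 0.0498). Of its 2 other probes, 1 of nearly equal brightness (9.14 against 9.21) read 0.00 and a dimmer one 0.21. Whether Col4a6 rose thus depends on the probe. Col4a5 read 8.45, 8.36 and 8.55 against 8.19, 8.17 and 8.02 and rose by 0.33 (SE 0.06, adjusted p = 0.0498). They were the 2 called members of 25 basement membrane genes, with 0 lower and a list median of 0.063 (0.054 without pair 3). Lama5, the laminin chain of most epithelial basement membranes, had a ratio of 0.33 and Lama3 of 0.18 (0.01 on a dimmer probe), neither of which passed (adjusted p = 0.0941 and 0.138). Abi3bp, an extracellular matrix protein, read 7.19, 7.16 and 7.22 against 6.75, 6.69 and 6.85 and rose by 0.43 (SE 0.08, adjusted p = 0.0498).

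**Figure D3:**
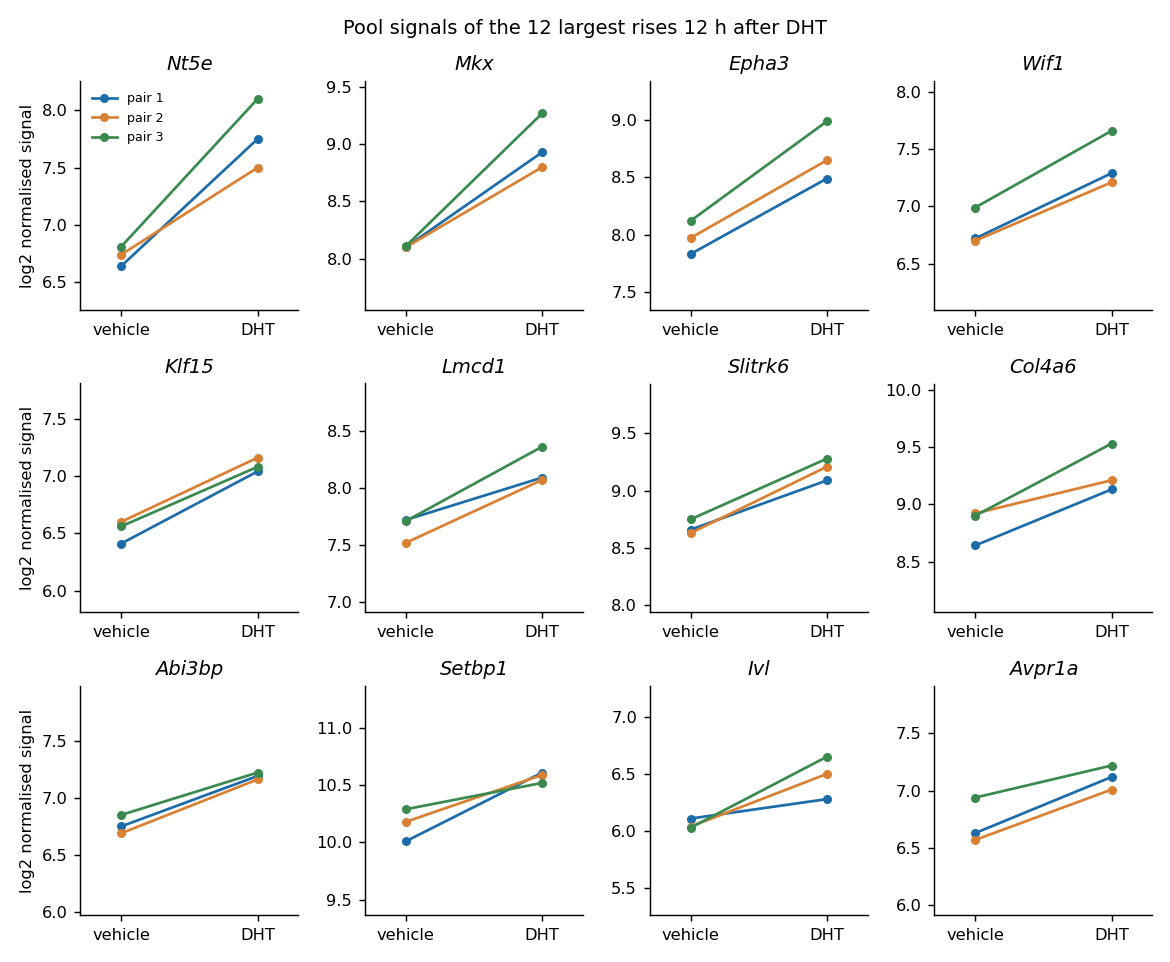
Log2 normalised signal (vertical axis, 2 log2 units in each panel) of the vehicle and DHT pools for the 12 largest rises, with a line joining the pools of 1 pair (pair 1 blue, pair 2 orange, pair 3 green). Every line runs upward, and in each of the 12 genes the lowest DHT pool is above the highest vehicle pool.

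The remaining rises included epidermal and stress genes. Ivl encodes involucrin, a protein of the cornified envelope of skin. It read 6.28, 6.50 and 6.65 after DHT and 6.11, 6.04 and 6.03 after vehicle, with ratios of 0.17, 0.46 and 0.62 and a mean of 0.41, in the order of the epithelial means given above. Csta1, a stefin A cysteine protease inhibitor whose near-identical copies may share its probe, was the only rise whose pools overlapped, at 6.57, 6.49 and 7.21 against 6.24, 6.27 and 6.57. Gadd45g, a stress and growth arrest gene, read 9.91, 9.81 and 9.95 against 9.61, 9.55 and 9.58, a ratio of 0.31 (SE 0.05, adjusted p = 0.035). Trp53inp1, a stress gene of the p53 pathway, rose by 0.26 (0.15 on a dimmer probe). Pla2g4a, the phospholipase that frees arachidonic acid, rose by 0.29 on its brighter probe (0.25 on the other), and Acot1, an acyl-CoA thioesterase, by 0.27. The kinase gene Lrrk1 rose by 0.34, the claudin gene Cldn10 by 0.26, and Rasl11b and Ralgps2, of Ras-type signalling, by 0.31 and 0.28. The other probes of Ralgps2 read 0.13 and 0.06. The last rises were Fam183b, 8430406M14Rik, AK046642 and AF366264, with ratios of 0.21 to 0.33. AK046642 was measured on 5 of 6 arrays, and with outlier spots kept its ratio was −0.02.

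The promoters of the rising genes were searched for AGAACA and, on the other strand, TGTTCT, the 6-base arm of the androgen response element. The window was the 250 bases before the gene start in RefSeq (GRCm38.p6). Of the 28 genes 22 had a promoter in the table, and 5 of these held the word at least once (22.7%), against 6 of 28 among the falls (21.4%) and 14.7% of all tested genes with a promoter. The word followed by 3 other bases and its inverted copy was found in 0 of the 22 and in 1 of 14268 tested genes. A match describes letters and is no evidence of binding. The windows of 3 of the 5, chosen for their known products, follow with the match in capitals and the sequence read towards the gene. That of Ivl lies at chr3:92573736-92573985 (minus strand), that of Pla2g4a at chr1:149922440-149922689 (minus strand) and that of Acot1 at chr12:84009252-84009501 (plus strand).
Ivl: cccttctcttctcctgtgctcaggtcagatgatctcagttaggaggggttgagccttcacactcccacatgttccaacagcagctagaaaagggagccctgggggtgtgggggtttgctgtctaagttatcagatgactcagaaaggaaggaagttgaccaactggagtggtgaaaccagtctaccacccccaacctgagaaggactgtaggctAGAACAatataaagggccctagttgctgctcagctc
Pla2g4a: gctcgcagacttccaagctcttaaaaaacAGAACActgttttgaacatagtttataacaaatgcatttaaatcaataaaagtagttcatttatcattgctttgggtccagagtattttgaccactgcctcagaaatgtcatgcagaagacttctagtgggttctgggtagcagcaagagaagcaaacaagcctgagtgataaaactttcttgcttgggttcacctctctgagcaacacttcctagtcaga
Acot1: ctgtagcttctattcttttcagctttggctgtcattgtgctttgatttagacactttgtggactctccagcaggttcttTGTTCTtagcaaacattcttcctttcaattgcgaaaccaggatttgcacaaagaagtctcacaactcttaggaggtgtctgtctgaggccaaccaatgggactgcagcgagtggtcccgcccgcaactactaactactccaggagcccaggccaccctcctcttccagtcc
The match begins 36 bases before the start in Ivl, 221 in Pla2g4a and 171 in Acot1. Nt5e, Mkx and Epha3 were not among the 5.

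Among the 43 falls, Wnt5b, Ccdc138 and Lix1 were on bright probes. Wnt5b encodes a Wnt ligand of the non-canonical kind. It read 8.01, 8.08 and 7.96 after DHT and 8.33, 8.24 and 8.32 after vehicle, a ratio of −0.28 (SE 0.05, adjusted p = 0.0475), while a dimmer probe read −0.13. The DHT pools were all below the vehicle pools. Lix1, a gene named for its expression in limb buds, read 7.54, 7.44 and 7.41 against 7.76, 7.74 and 7.79 and fell by 0.30 (SE 0.06, adjusted p = 0.0498), with a second probe at −0.19. Ccdc138, a coiled-coil gene, fell by 0.26, though its pools overlapped and its 3 other probes read between −0.12 and 0.00.

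The other falls lay below the median brightness. Pcdh8, a protocadherin and the only called member of 26 cadherins, read 6.61, 6.51 and 6.29 after DHT and 7.01, 6.83 and 6.57 after vehicle. It was lower within every pair (ratio −0.33, SE 0.05, adjusted p = 0.0264), but its pools overlapped between pairs. Gna14, a G protein subunit of the Gq class, read 6.40, 6.18 and 6.28 against 6.67, 6.48 and 6.71 and fell by 0.33 (SE 0.06, adjusted p = 0.0498). Lypd1, a membrane-anchored Ly6 family protein, read 6.85, 6.71 and 6.67 against 7.11, 6.97 and 7.06 and fell by 0.30. Gatc, a subunit of the mitochondrial enzyme that charges glutamine tRNA, fell by 0.29 with a second probe at 0.07. Aqp6, a water channel gene, fell by 0.27 (SE 0.04, adjusted p = 0.0264), and Pnma3 by 0.27. BC064745, NAP021919-001 and Gm5105 had ratios of −0.30, −0.29 and −0.28. The rest ranged from −0.26 to −0.19 and included Kcnh2, a potassium channel gene, Pdyn, the opioid precursor prodynorphin, and Galc, a lysosomal galactosidase. Galc was at −0.22 on the probe used and at 0.00 and 0.02 on its other probes. B3gnt7, Ntsr2, Trim17, Zfp398 and 4930432K21Rik, also among these falls, read 0.02, 0.05, −0.04, −0.01 and −0.06 on a dimmer probe. No fall with another probe was as large on it. Of all 43 falls, 31 were well above background in every channel, and none had a ratio as far from 0 as the median rise.

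Genes known to respond to steroid hormones in other tissues were mostly above 0. Of 22 measured, 2 were called higher (Klf15 and Gadd45g) and 0 lower. At an unadjusted p under 0.05, 10 were positive and 0 negative, against 6.16% and 7.91% of all genes. The list median was 0.158 against 0.002 over all genes, and 0.157 without pair 3. Cebpd, a transcription factor of the acute phase response, read 9.92, 10.24 and 10.22 after DHT and 9.68, 9.91 and 9.66 after vehicle, and its ratio of 0.38 did not pass (SE 0.08, adjusted p = 0.0673). Glul, glutamine synthetase, read 9.62, 9.52 and 9.82 against 9.26, 9.09 and 9.52, a ratio of 0.36 that did not pass (SE 0.07, adjusted p = 0.0584). Its other, dimmer probes read 0.00 and −0.01, so the ratio rests on 1 probe. In both genes the DHT pools were above the vehicle pools. Fkbp5, the co-chaperone of steroid receptors and a classic target of theirs, read 7.36, 7.37 and 7.51 against 7.11, 7.07 and 7.14, a ratio of 0.30 (SE 0.07, adjusted p = 0.0872), with other probes at 0.06 and 0.28. Klf9 was at 0.34, Errfi1, a feedback inhibitor of the EGF receptor, at 0.35, and Tsc22d3, which encodes the leucine zipper protein GILZ, at 0.22. None of these passed. At the other end Tgm2 was at −0.24 and Mt2, a metallothionein, at −0.17.

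Of 25 androgen-responsive genes of the adult prostate, 0 were called, and the median was 0.079 (0.065 without pair 3). At an unadjusted p under 0.05, 9 were positive and 1 negative, against 6.16% and 7.91% of all genes. Ndrg1 had the highest ratio, 0.41, of which pair 3 gave 0.83 and the other pairs 0.16 and 0.23. Tmprss2, a surface protease of prostate epithelium, had ratios of −0.15, 0.45 and 0.45.

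Of 28 regulators of prostatic bud and UGS development, Wif1 was called higher and 0 lower. There were 11 positive members and 1 negative at an unadjusted p under 0.05, against 6.16% and 7.91% of all genes. The median was 0.152 (0.116 without pair 3). Shh, the hedgehog ligand of UGS epithelium, read 8.50, 8.86 and 9.08 after DHT and 8.16, 8.19 and 8.61 after vehicle. It was higher in each pair, its pools overlapped, and its ratio of 0.49 did not pass (SE 0.11, adjusted p = 0.0769). Fgf10, a mesenchymal growth factor needed for budding, read 6.89, 6.69 and 6.75 against 6.59, 6.48 and 6.51, a ratio of 0.25 (SE 0.06, adjusted p = 0.0927). Its arrays with DHT in Cy5 read 0.50, 0.49 and 0.61 and those with DHT in Cy3 0.09, −0.06 and −0.13. The dye effect of Fgf10 was 0.28, so its ratio rests on arrays of 1 dye order. Srd5a2, the 5-alpha-reductase of the mesenchyme, was at 0.32 (SE 0.08, adjusted p = 0.11). Foxa1, Sox9 and Hoxb13, transcription factors of the UGS epithelium, were at 0.35, 0.16 and 0.16, and Bmp4, a mesenchymal inhibitor of budding, at −0.08. For Foxa1 the DHT pool of pair 1 was below that of vehicle (7.76 against 7.80). Other, dimmer probes of Sox9 read 0.22 and −0.01. Epithelial means were −0.023, 0.327 and 0.534 in pairs 1 to 3. Beside them Foxa1 had ratios of −0.04, 0.51 and 0.58 and Hoxb13 of 0.02, 0.23 and 0.22. Shh had ratios of 0.34, 0.67 and 0.47 and Sox9 of 0.13, 0.16 and 0.17. The part of the epithelial means was not tested gene by gene. With the epithelial mean as a covariate in limma, 0 genes were called and 3806 had an unadjusted p under 0.05.

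Sfrp2, a secreted Wnt antagonist of mesenchyme, did not pass but had pools that did not overlap, at 13.18, 13.03 and 13.22 against 12.70, 12.66 and 12.57 (ratio 0.50, adjusted p = 0.108). Of 44 Wnt genes, Wif1 was called higher and Wnt5b lower, with a median of −0.008. Among 37 stromal matrix genes Abi3bp was the only one called. Col8a1, a short-chain collagen, was the lowest of them at −0.63 (adjusted p = 0.196), with DHT pools at 10.20, 10.18 and 9.74 and vehicle pools at 10.58, 10.50 and 10.91. In the hedgehog, BMP and TGF-beta, Notch, retinoic acid, growth factor and steroid receptor lists 0 genes were called, and medians lay between −0.057 and 0.023.

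Cell cycle genes lay mostly below 0. Of 39 measured, 24 were below 0 in all 3 pairs, against 18.6% of all genes, none was above 0 in all 3 (16.8% of all genes), and 0 were called. The median was −0.075 (−0.08 without pair 3). All 8 members with an unadjusted p under 0.05 were negative (of all genes, 7.91% were negative and 6.16% positive). Of these, Mcm3, Mcm4, Mcm6 and Mcm7, of the helicase that unwinds DNA for replication, had ratios of −0.15, −0.13, −0.16 and −0.13. Mcm4 read 0.20, 0.10 and 0.04 on arrays with DHT in Cy5 and −0.33, −0.35 and −0.41 with DHT in Cy3. Of all genes tested, 51.1% were above 0. Cholesterol and fatty acid synthesis had 5 of 27 members above 0 and a median of −0.047. Circadian clock genes had 15 of 18 above 0 and a median of 0.044, with Clock and Cry1 at 0.18 each. Cry1 read 0.39, 0.37 and 0.49 on arrays with DHT in Cy5 and −0.04, −0.24 and 0.09 with DHT in Cy3. Endothelial markers had 5 of 19 above 0 and a median of −0.075. Of the 19, 12 were below 0 in all 3 pairs (18.6% of all genes) and 0 above 0 in all 3. At an unadjusted p under 0.05 in limma, 7 were negative and 0 positive, against 7.91% and 6.16% of all genes. The brightest endothelial markers, Kdr, Robo4 and Cdh5, were at 0.08, −0.02 and −0.03, with a dimmer Cdh5 probe at −0.16. Red cell markers had means of −0.158, −0.023 and −0.305 in pairs 1 to 3. In all of these lists 0 genes were called in limma.

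**Figure D4:**
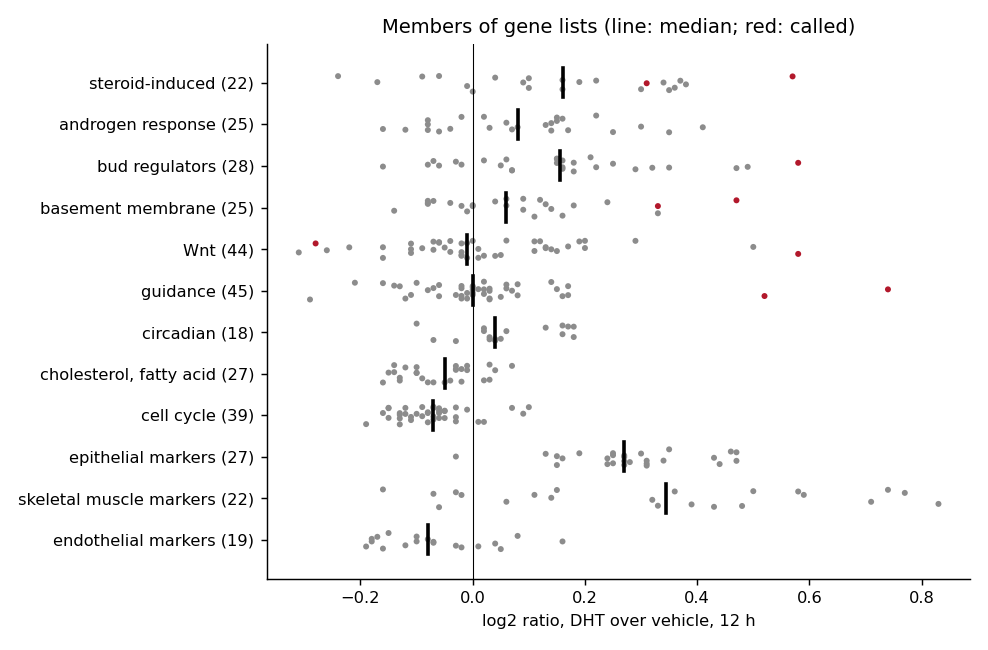
Log2 ratio of DHT over vehicle at 12 h (horizontal axis) for each measured member of 12 gene lists (rows, number of members in brackets); black lines are list medians and red points are genes called at an adjusted p under 0.05. The medians of the steroid-induced list (0.158) and of the bud regulators (0.152) lie above 0, and those of the cell cycle list (−0.075) and of the endothelial markers (−0.075) below.

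The rises were set beside the difference between untreated males and females at 17.5 dpc, which used other pools. Of the 28 genes that rose, 19 were also higher in males (3.72% of all genes were), 3 were lower in males (3.86% of all genes were) and 6 did not pass. Nt5e, Wif1 and Mkx had male-female ratios of 1.95, 1.53 and 1.43. The difference between both comparisons passed for Nt5e (adjusted p = 0.026) and Wif1 (adjusted p = 0.00196), whose 12 h ratios were smaller, and not for Mkx (adjusted p = 0.0935) or Epha3 (0.74 against 0.94, adjusted p = 0.48). The 3 rises that were lower in males were Avpr1a (−0.30), Csta1 (−0.32) and 8430406M14Rik (−0.13). For each of them the difference passed (adjusted p = 0.000888, 0.00186 and 0.00335). Of the 43 falls, 4 were lower in males, namely Wnt5b, Lypd1, Pcdh8 and Kcnh2, and 0 were higher. The other 39 had male-female ratios that did not pass. Wnt5b had a ratio of −0.32 between the sexes and −0.28 after DHT. The difference itself passed for 10 of the 28 rises and 19 of the 43 falls, against 1.65% of all genes. The 12 h ratio that chose these genes is part of that difference, so a larger share follows in part from the choice.

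**Figure D5:**
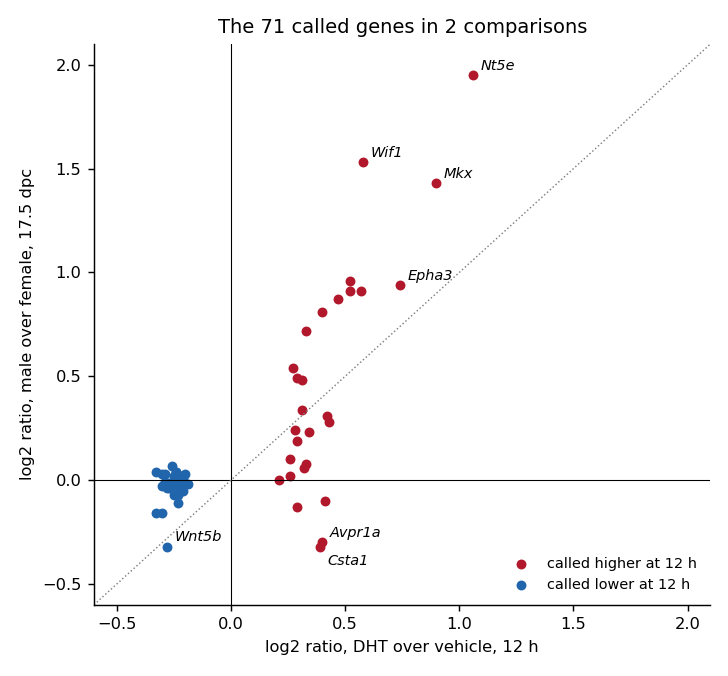
Log2 ratio of DHT over vehicle at 12 h (horizontal axis) and of male over female UGS at 17.5 dpc (vertical axis) for the 28 genes called higher (red) and 43 called lower (blue) at 12 h; the dotted line marks equal ratios. Most red points lie above 0 on both axes, up to Nt5e at 1.06 and 1.95, and the blue points lie near 0 on the vertical axis except for a few such as Wnt5b at −0.32.

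The 12 h ratio was also tested against the 6 h ratio of other pools. It differed in 28 genes (0.113% of those tested), of which 24 were higher and 4 lower at 12 h. Of the 28 rises 8 were among them, namely Mkx, Epha3, Wif1, Col4a6, Slitrk6, Gadd45g, Col4a5 and 8430406M14Rik, and of the 43 falls only Pcdh8. The 12 h ratio that chose the rises and falls is part of this difference too. Mkx had a ratio of −0.19 at 6 h (adjusted p = 0.433) and Epha3 of −0.26 (adjusted p = 0.166), and they were 1.09 and 0.99 higher at 12 h (adjusted p = 0.0247 each). For Nt5e, at 0.13 after 6 h, the difference of 0.93 did not pass (adjusted p = 0.0724). Klf15 and Synpr were already positive at 6 h, at 0.37 (adjusted p = 0.0552) and 0.27 (adjusted p = 0.0178). Col4a6 and Gadd45g were called lower at 6 h, at −0.34 (adjusted p = 0.0366) and −0.21 (adjusted p = 0.0196). Their differences thus hold a 6 h fall as well as a 12 h rise. Epithelial markers had a median of −0.245 at 6 h and 0.272 at 12 h. Y-linked genes (5 measured) had a median of −0.34 at 6 h and −0.017 at 12 h. In limma the 6 h ratio was −1.31 for Eif2s3y (adjusted p = 0.023) and −0.34 for Kdm5d (adjusted p = 0.0222). Zfy1 was at 0.00. What part this had in the differences was not tested. The 12 h and 6 h ratios share no arrays or pools. Time thus cannot be told apart from any difference between array sessions or in the make-up of the pools.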

How the data were processed

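Agilent Feature Extraction 7.5.1 wrote the deposited scanner files, per the file headers. The deposited files hold spot intensity and local background in both channels and, per the file headers, a log10 ratio (Cy5 against Cy3) after background subtraction and dye normalisation. A log2 ratio for each probe stands in the deposited series matrix. Its columns for the 12 h arrays had medians of −0.0101 to 0.0108 and ran with the scanner ratio on unswapped arrays and against it on swapped ones, so they were already turned to DHT over vehicle. Their normalisation is not given in the sources used here.

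Background was removed from mean intensities by normexp with an offset of 50 (limma 3.58.1 in R 4.3.3, with data.table version 1.17.8 to read files). They were normalised within arrays by loess, with control spots at weight 0 and outlier spots missing. Ratios were turned to DHT over vehicle, and the 2 arrays of a pair were averaged. Pool levels come from the same values after Aquantile scaling between arrays. Probes well above background in either channel on at least 6 of 24 arrays were kept (35477 of 41174), and the brightest probe stood for its gene, which gave 24715 genes. Probes were named in RefSeq by accession (21570), symbol (5358) or synonym (4597), and 9649 kept the name in the file. The 12 pairs were fitted together in limma (residual df 9, prior df 3.95) with 1 coefficient per comparison and contrasts for differences. Two-sided tests used Benjamini-Hochberg adjustment over the 24715 genes and a threshold of 0.05. SE comes from the fit. A value was missing on any array for 1763 genes and for a whole pair for 42. The fit was tested on simulated data.

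Members, gene lists and the rule for naming genes were chosen with earlier results of these data known. The rule named all called genes, in full for the 12 largest in each direction, up to 5 members of each of the gene lists at an unadjusted p under 0.05, a fixed set of UGS and androgen genes, and the brightest markers. Afp, Alb, Krt10, Hrnr, Krt1, Flg, Tgm2, Mt2, Klf9, Tsc22d3, Tmprss2 and Ddx3y were chosen after their values were seen. Some genes named by the rule are not reported here. Lists were described by counts and medians, with no set test. Alternatives covered background correction, normalisation, probe filters, the samples in the fit, dye, marker covariates and left-out replicates.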

Additional observations from a re-analysis of the deposited data

Results flagged for a closer look

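The 12 h and 6 h ratios differed in 28 genes by the contrast in limma at an adjusted p under 0.05, and each is given here by the 12 h ratio minus the 6 h ratio. Those also called higher at 12 h were Mkx (1.09), Epha3 (0.99), Wif1 (0.82), Col4a6 (0.81), Slitrk6 (0.53), Gadd45g (0.53), Col4a5 (0.48) and 8430406M14Rik (0.38). Col4a6 and Gadd45g were called lower at 6 h, with 6 h ratios of −0.34 and −0.21. Pcdh8 (−0.43) was called lower at 12 h.

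Rhoj, which encodes a small GTPase of endothelial cells, had the largest difference (−1.18). Its ratio was 0.58 at 6 h and −0.60 at 12 h, where the DHT pools read 10.00, 9.20 and 9.86 and the vehicle pools 10.39, 10.30 and 10.17. The 12 h fall was largest in pair 2 and did not pass (adjusted p = 0.0837).

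Several genes called lower at 6 h were near 0 at 12 h. Smoc2, a matricellular protein, differed by 0.67, with −0.68 at 6 h and −0.01 at 12 h. Of the same kind were D5Ertd121e (0.65), Srsf9 (0.47), Pdia4 (0.44), Bcl7a (0.39) and Cldnd1 (0.37).

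Other genes were below 0 at 6 h and above 0 at 12 h without being called at 12 h. Gata3, a transcription factor of UGS epithelium, differed by 0.72 (−0.49 and 0.22) and Id1, an inhibitor of basic helix-loop-helix factors, by 0.61 (−0.40 and 0.21). The others were Cbr2 (0.82), Snrpd3 (0.81), Efemp1 (0.72), Fzd7 (0.45), Camk1d (0.45), Zfp110 (0.41), Plagl2 (0.40) and Slc22a4 (0.33). Mpv17l (−0.41) and B330016D10Rik (−0.29) went the other way. At 12 h a second probe of Fzd7 read −0.07 and one of D5Ertd121e −0.13. The epithelial marker medians of −0.245 at 6 h and 0.272 at 12 h moved in the direction of most of these genes, and their part was not tested gene by gene. The Y-linked medians were −0.34 at 6 h and −0.017 at 12 h, and their part was not tested either. Leaving out any 1 of the 12 h pairs left 0 of the 28 differences called in limma, with 2977 to 3485 genes at an unadjusted p under 0.05.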

How the results depend on the processing

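The count of 71 genes called at 12 h moved with most choices, and the cause was not tested. In some settings fewer samples or genes entered the fit. It was 0 without background correction (3037 genes at an unadjusted p under 0.05 in limma), with the series matrix (2635), with arrays scaled to 1 spread (1948), with the 12 h pairs alone (3014), with the epithelial (3806) or skeletal muscle (3126) marker mean as a covariate, and without any 1 of the 12 h pairs (0 each). It was 47 with the scanner software's ratio, 21 with median centring, 25 with the filter set on the 12 h arrays, 19 with outlier spots kept, 9 with the 6 h and 12 h pairs only, 117 with an intensity trend and 189 with single arrays, a dye term and the pair as block. In 3 alternatives added after the data were seen it was 25 with complete pairs only, 7 over the genes brighter than the median (all 7 higher) and 18 with ratios centred along brightness. It was 81 without the filter, 94 with all probes averaged and 75 with the replicate number as a random block (30 higher and 45 lower). Pairs with the same number at 12 h and 6 h correlated at 0.115, −0.03 and 0.189 across genes, and those at 12 h and between the sexes at 0.286, 0.002 and 0.237. Number 2 showed no such correlation in either, so the numbers were not taken to pair samples. Wherever they were measured, the called genes kept their sign in these settings except for AK046642, which was −0.12 in the series matrix and −0.02 with outlier spots kept. The difference from 6 h, 28 genes, became 11 without background correction, 0 with the scanner's ratio (2840 at an unadjusted p under 0.05 in limma), 74 with median centring, 0 with scaled arrays (2479), 14 with the 6 h and 12 h pairs only, 11 with the trend, 550 with single arrays, 90 with the replicate block, 0 with the epithelial (2913) and 3 with the muscle covariate, and 13 with centring along brightness; without any 1 of the 12 h pairs it was 0. The difference from the male-female ratio, 408 genes, became 784 with single arrays and 135 to 202 without 1 of the 12 h pairs. The dye effect, 7426 genes, became 21405 with median centring, 4022 with scaled arrays, 3 with the 12 h pairs alone, 3995 over the brighter genes and 4466 to 6235 without 1 of the 12 h pairs. The slide or scan session was not fitted as a block, and the comparisons shared no arrays. Of the 43 falls 31 were well above background in every channel, and how far signal over background limits the size of the falls was not tested.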
